A study of Sus scrofa with 35 samples.

Results

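IGF2, the gene of insulin-like growth factor 2, was measured in pig longissimus dorsi, a back muscle, by 8 of the 60305 non-control probes of a 1-colour Agilent array. These were all the probes that the scanner files named IGF2. It is 1 of the 10989 genes that could be named on the array through the reference gene tables. The gene was selected on its measured difference in level between the Creole and Large White breeds in an earlier analysis of the same arrays, so that difference is described here without a test. Castrated male growing pigs were of the Creole breed, a local Caribbean breed, of the Large White breed, a lean commercial breed, or of the F1 cross between them. They were slaughtered at thermoneutrality (TN, labelled 24 °C) or after a heat challenge (HS, labelled 30 °C, although the growth protocol gives 32 °C for 5 days). Each breed contributed 6 TN and 6 HS animals, except that F1 HS had 5, with 1 array each. According to the study methods, each breed came from a few litters, and TN and HS pigs differed in pen and slaughter day. The labels give neither the litter, the sire, the IGF2 genotype nor the breed of the boar that sired the F1 animals.

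IGF2 is a secreted growth factor of fetal and muscle growth that signals through the IGF1 receptor and the insulin receptor, while the IGF2 receptor removes it from the cell surface. It is imprinted: in most mammalian tissues, muscle included, the copy inherited from the father is expressed and the copy from the mother is silent, whereas the neighbouring non-coding gene H19 is expressed from the maternal copy. In pigs, a single substitution in an intron of IGF2, at a site bound by the repressor ZBED6, is known to affect the IGF2 level of skeletal muscle.

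The 8 probes, each of 60 bases, held 7 different sequences. They are shown because the breed pattern rests on them and because some of them share bases. Probes A_72_P537638 and A_72_P537644, designed on the transcript NM_213883 from its bases 388 and 410, overlap by 38 bases, given in capitals:
A_72_P537638: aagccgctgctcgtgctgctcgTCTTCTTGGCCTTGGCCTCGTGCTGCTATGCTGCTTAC
A_72_P537644: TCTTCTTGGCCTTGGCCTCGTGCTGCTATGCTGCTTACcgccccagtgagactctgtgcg
Probes A_72_P544532 (from base 679 of the same transcript) and A_72_P414438 hold 1 and the same sequence and were printed at different places of the array:
A_72_P544532: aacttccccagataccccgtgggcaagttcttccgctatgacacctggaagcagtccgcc
Probe O9318, which the files credit to the transcript NM_001007139, shares 39 bases, in capitals, with A_72_P155326, a probe that carries only a transcript cluster name in the files:
O9318: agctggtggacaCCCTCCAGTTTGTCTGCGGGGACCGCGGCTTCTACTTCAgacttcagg
A_72_P155326: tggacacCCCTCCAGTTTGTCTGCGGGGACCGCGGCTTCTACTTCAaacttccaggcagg
The remaining IGF2 probes start at base 911 (A_72_P599193) and base 1138 (A_72_P303139) of NM_213883 and at base 1430 of the transcript AK233453 (A_72_P376458).

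All 8 IGF2 probes were well above background on 35 of 35 arrays. Their mean levels, in log2 of the quantile-normalised median pixel intensity, ran from 11.93 for A_72_P537644 to 16.24 for A_72_P376458. The brightest one, A_72_P376458, brighter than 98.3% of the 41517 probes kept for testing, served as the reference probe. Levels of different probes are not compared as amounts of RNA, since each probe binds with its own strength. Across the 35 arrays the probes moved together, with a Pearson r of 0.987 to 0.999 between any pair, a description over arrays that share breed and temperature. For the pair of identical sequence, the difference between the probes had an SD of 0.05 log2 over the arrays.

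In Large White muscle, IGF2 was high in every array. The reference probe read from 17.25 to 17.56 in Large White TN (median 17.45) and from 17.15 to 17.88 in Large White HS (median 17.56). The SD over the 12 Large White arrays was 0.19 log2.

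In Creole muscle, most arrays were far lower. In Creole TN the reference probe ranged from 14.84 to 17.76 with a median of 15.14, and in Creole HS from 14.99 to 17.57 with a median of 15.48. Of the 12 Creole arrays, 9 read between 14.84 and 15.49, below every Large White array. The other 3, Creole TN replicate 6 (17.76), Creole HS replicate 5 (17.57) and Creole HS replicate 6 (17.47), lay within the Large White range. The SD over the 12 Creole arrays was accordingly 1.11 log2.

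F1 muscle resembled the lower Creole arrays. In F1 TN the reference probe ranged from 14.37 to 15.56 with a median of 15.32. The 5 F1 HS arrays read 14.91, 15.35, 17.68, 15.15 and 15.02. Of the 11 F1 arrays, 10 lay below every Large White array, and F1 HS replicate 3 lay within the Large White range on this probe. On A_72_P599193, A_72_P303139, A_72_P414438, O9318 and A_72_P537644 that array read above every Large White array.

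No array lay between these levels. Sorted over all 35 arrays, the reference probe had an empty interval from 15.56 to 17.15, a gap of 1.59 log2 or 3.02-fold, with 19 arrays below it and 16 above it, while the next widest gap was 0.35. All 12 Large White arrays, 3 of 12 Creole arrays and 1 of 11 F1 arrays stood above the gap. Each of the other 7 IGF2 probes placed its widest gap, from 1.096 to 1.463 log2, between the same 19 and 16 arrays. The same arrays were also separated in the value table that the authors deposited and under each of the other scalings and background corrections tried, where the widest gap of the reference probe was between 1.08 and 1.59.

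**Figure D1:**
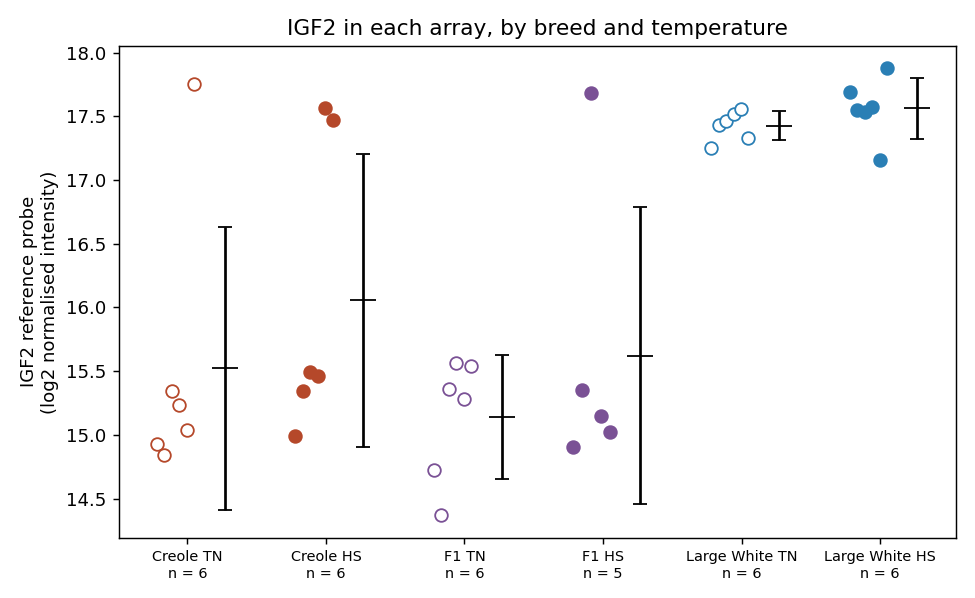
Level of the IGF2 reference probe (log2 normalised intensity, vertical axis) in each array of the 6 groups, with open points for TN, filled points for HS, and the group mean ± SD as a bar beside the points. The values lie either at 15.56 or lower or at 17.15 or higher, with every Large White array, 3 Creole arrays and 1 F1 array in the upper part.

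**Figure D2:**
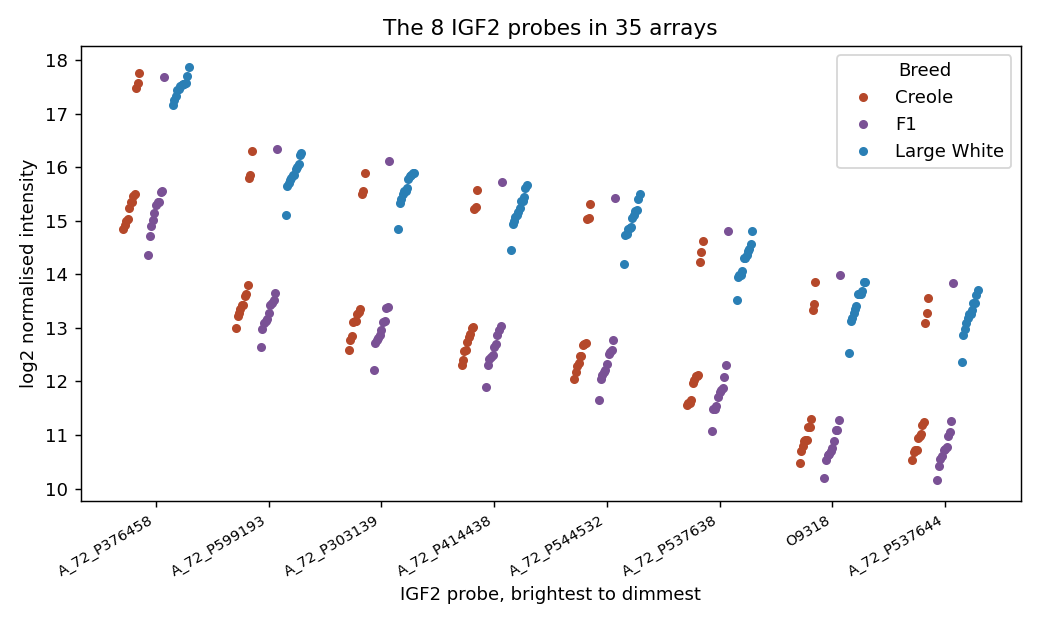
Levels (log2 normalised intensity, vertical axis) of the 8 IGF2 probes, ordered from brightest to dimmest along the horizontal axis, with 1 point per array coloured by breed. In every probe 9 of 12 Creole arrays and 10 of 11 F1 arrays fall below the lowest Large White array.

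Ordered by the mean of the reference probe, the groups ran from F1 TN (15.14 ± 0.49, SD, n = 6) through Creole TN (15.52 ± 1.11, SD, n = 6), F1 HS (15.62 ± 1.16, SD, n = 5) and Creole HS (16.05 ± 1.15, SD, n = 6) to Large White TN (17.43 ± 0.11, SD, n = 6) and Large White HS (17.56 ± 0.24, SD, n = 6). The ranges of all neighbours in this order overlapped. Over both temperatures the mean was 17.49 ± 0.19 (SD, n = 12) in Large White, 15.79 ± 1.11 in the 12 Creole arrays and 15.36 ± 0.85 in the 11 F1 arrays. The Creole mean fell inside the empty interval, at a level that no array had.

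The difference through which the gene was chosen, Creole minus Large White, was -1.71 log2 for the reference probe, which is 3.26-fold lower in Creole, and from -1.72 to -1.89 for the other probes. It is given as a description. In the whole array, 3.64% of the probes tested were called between these breeds (limma, adjusted p below 0.05; 1.73% higher and 1.92% lower in Creole), a share from which nothing is read for IGF2. The arrays were hybridised on 5 slides, each with several groups. Within slides 1, 2 and 3 the difference was -2.56, -2.20 and -2.13, within slide 4, which held Creole TN replicate 6 and Creole HS replicate 5, it was -0.77, and within slide 5, with 1 Creole array (Creole HS replicate 6), it was 0.03. In a bulk muscle sample, fewer cells that express a gene and less RNA per cell cannot be told apart.

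The F1 mean was not between the parental means. On a scale where the Creole mean is 0% and the Large White mean 100%, F1 stood at -25.2% for the reference probe. The other probes gave -25.5% to -30.0%, so all probes put the F1 mean on the far side of the Creole mean. The medians of the reference probe were close, at 15.35 in Creole and 15.28 in F1. Above the gap stood 3 of 12 Creole arrays and 1 of 11 F1 arrays. The difference of the F1 and Creole means, -0.43, is given without a test. At TN alone the position of the reference probe was -20.2% and at HS alone -28.7%, whereas 6 of the other 7 probes lay further beyond Creole at TN than at HS, with -31.0% and -19.3% for O9318. Single arrays moved it: for the reference probe it was -38.9% without F1 HS replicate 3 and -13.3% without Creole TN replicate 6.

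Against the midpoint of the parental means, F1 was lower, with a difference of -1.27 log2 (SE 0.28, 95% confidence interval -1.83 to -0.70, limma adjusted p = 0.0396). With F1 near the Creole level, this contrast takes in part of the Creole minus Large White difference through which the gene was chosen. Of the 11 F1 arrays, 10 were nearer to the Creole mean than to the Large White mean. The place of F1 relative to the parents was named when the gene was proposed from these data, so the test is not independent support for it. Of the 8 IGF2 probes, 7 passed the threshold and A_72_P537638 did not (adjusted p = 0.0505), with differences between -1.27 and -1.45. In the whole array 0.246% of probes were called in this contrast, 0.0578% as lower and 0.188% as higher in F1. Within slides 1 to 4, which held all 3 breeds, the difference of the reference probe was -1.20, -0.38, -0.98 and -2.03. The 8 probes report on 1 gene and are not 8 independent results. The call lay close to the threshold: it was lost with slide as a block (-1.17, adjusted p = 0.0552), with no filter on dim probes (adjusted p = 0.051), with scaling to the 75th percentile (adjusted p = 0.0696), when 3 arrays with high levels of liver genes, described with the marker lists, were left out (-1.34, adjusted p = 0.0559), and when any of 14 single arrays was left out, where the difference stayed negative. The model assumes values that scatter around a group mean, whereas the Creole and F1 values lay at separate levels.

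Temperature was not used to choose the gene. The reference probe was 0.38 log2 higher in HS than in TN across breeds (SE 0.26, 95% confidence interval -0.14 to 0.91, limma adjusted p = 0.332). In this probe 10 of the 17 HS arrays were above the TN mean of their breed. In the other probes 8 or 9 of the 17 were below it. None of the 8 probes was called in this comparison and none had an unadjusted p under 0.05, while 16% of all probes tested were called, 7.73% as higher and 8.3% as lower. Of these, 3209 were higher and 3445 lower in HS, a split that was 2539 to 6781 with scaling to the 75th percentile and 4044 to 627 with spike-in scaling. The differences of the 8 probes ran from 0.32 to 0.40. Within slides 1 to 5, with breeds pooled, HS minus TN was 0.30, 1.43, 0.49, -0.04 and 0.03. These values mix breed with temperature, since in each slide the breeds were unevenly split between TN and HS. In slide 5 the only HS array was Creole and the TN arrays were Large White, so 0.03 is also its breed difference.

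Within breeds, the HS minus TN difference of the reference probe was 0.53 in Creole (SE 0.45, adjusted p = 0.519), 0.48 in F1 (SE 0.47, adjusted p = 0.88) and 0.14 in Large White (SE 0.45, adjusted p = 0.903), all from limma with a shared estimate of the spread. No IGF2 probe was called in any of these comparisons, in which 1.91%, 0.00482% and 0.00482% of all probes were called. The F1 value rested on F1 HS replicate 3 and was -0.034 without it. In Creole the difference was 0.98 without Creole TN replicate 6 and 0.23 without Creole HS replicate 5. In Large White it turned to -0.036 with scaling to the 75th percentile. The pooled within-group SD of the reference probe was 0.82, while the SD was 0.11 in Large White TN and 0.24 in Large White HS. The SE and adjusted p of Large White therefore do not measure its own spread. In the Creole and F1 groups the SD ran from 0.49 to 1.16, since some of them held arrays on both sides of the gap. The fit across breeds also uses 1 shared spread. A breed by temperature interaction was not called for any IGF2 probe (moderated F-test in limma, adjusted p = 0.978 for the reference probe, none of 8 with an unadjusted p under 0.05), nor for any probe of the array, of which 1593 had an unadjusted p under 0.05.

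**Figure D3:**
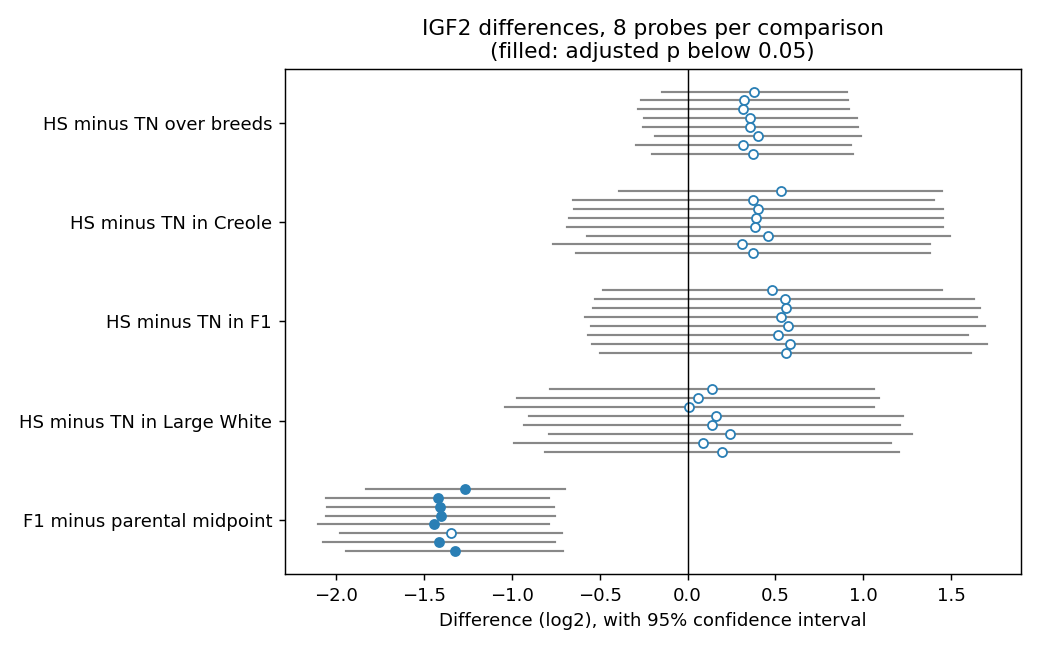
Differences of the 8 IGF2 probes (log2, horizontal axis) with 95% confidence intervals for 5 comparisons, from the brightest probe at the top of each block to the dimmest, with filled points for limma adjusted p below 0.05. All 8 intervals of F1 minus the parental midpoint lie below 0, and every interval of HS minus TN contains 0. The place of F1 was named when the gene was proposed, so its filled points are not independent support.

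The probes named IGF2AS and INS-IGF2 did not follow IGF2. The probe named IGF2AS, an antisense transcript of the locus, read 12.03 ± 0.09 (SD, n = 12) in Large White, 12.08 ± 0.07 in the 12 Creole arrays and 12.03 ± 0.10 in the 11 F1 arrays, and its HS minus TN difference was 0.01 (SE 0.04, limma adjusted p = 0.907). The probe named INS-IGF2, a read-through transcript, was dim at 6.29 in Creole, 6.21 in F1 and 6.22 in Large White, and fell by 0.21 in HS (SE 0.07, limma adjusted p = 0.0245). Over the 35 arrays these probes had a Pearson r of -0.00497 and -0.11 with the reference probe. Both were named for the same locus and were picked after their values were seen. H19, the maternally expressed neighbour, averaged 9.79 in Creole, 9.97 in F1 and 9.64 in Large White on its only probe and was called neither between breeds (0.15, SE 0.19, adjusted p = 0.788) nor between temperatures (-0.06, SE 0.15, adjusted p = 0.848).

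The RefSeq gene table (Sscrofa11.1) places IGF2 on chromosome 2. Its neighbours were taken as the 10 genes on each side, in the order of that table, that carry a symbol there and had a kept probe, a rule under which H19, IGF2AS and INS-IGF2 are not among them. None of these 20 genes was called between Creole and Large White, against 3.64% of all probes. Genes of this and the later lists were each taken by the brightest kept probe, whereas the shares of all probes count every kept probe. Their differences ran from -0.37 to 0.26 log2, with a median of -0.02. The lowest was that of TNNT3, the fast skeletal troponin T (-0.37, SE 0.12, limma adjusted p = 0.0839). With temperature, 5 of the 20 (25%, against 16% of all probes) were called: AP2A2, an adaptor of endocytosis (0.32), CD81, a tetraspanin (0.29), and CTTN, the actin-binding cortactin (0.16), rose in HS, while TNNI2, the fast skeletal troponin I, fell by 0.15 and NAP1L4, a histone chaperone, fell by 0.16. CD81 was not called with scaling to the 75th percentile (adjusted p = 0.0818) or with the processed signal (adjusted p = 0.163), and NAP1L4 not with spike-in scaling (adjusted p = 0.23). The difference of TNNI2 was -0.37 with scaling to the 75th percentile and -0.38 with the processed signal.

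**Figure D4:**
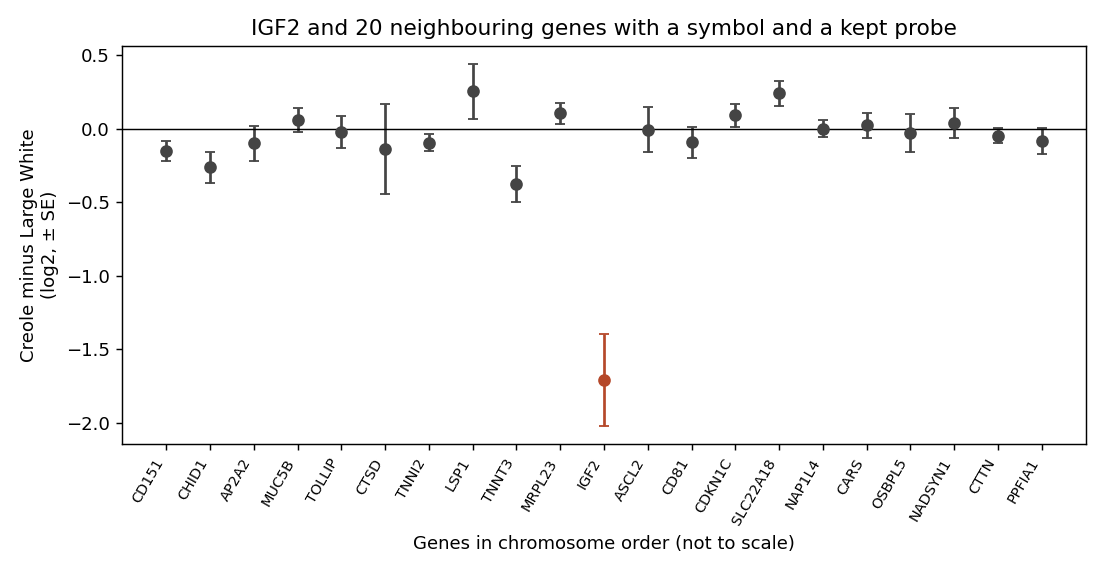
Creole minus Large White difference (log2, vertical axis, ± SE of the limma fit) of IGF2 and of the 10 neighbouring genes on each side that carry a symbol and had a kept probe, in chromosome order, with distances not to scale. IGF2 was chosen through this difference and stands at -1.71, while the neighbours lie between -0.37 and 0.26.

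Among 22 measured genes of a list of 29 imprinted genes, each by its brightest probe, none was called between Creole and Large White, against 3.64% of all probes. Their differences had a median of 0.05 log2 and ran from -0.39 to 1.05, the highest being that of PON3 (SE 0.51, adjusted p = 0.318). For GRB10, an adaptor that binds the insulin receptor, the probes disagreed: the brightest was not called (-0.19, adjusted p = 0.525), and among the remaining 6 there was 1 called as lower and 2 called as higher in Creole. PON3 and GRB10 were picked after their values were seen. With temperature, 3 of the 22 (13.6%, against 16% of all probes) were called. MEST, a hydrolase expressed from the paternal copy, rose by 0.27 (SE 0.07, adjusted p = 0.00926), but none of its 3 other kept probes was called. PEG10, a paternally expressed gene derived from a retrotransposon, rose by 0.55 (SE 0.19, adjusted p = 0.0484), as did 3 of its 4 other probes, but it was not called with the processed signal (adjusted p = 0.0523). ASB4 fell by 0.64 (SE 0.15, adjusted p = 0.00548).

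Of the IGF system, 35 of 42 listed genes had a kept probe, and 2 of them (5.71%, against 3.64% of all probes) were called between the parental breeds, both lower in Creole. IGFBP6, a binding protein that prefers IGF2 to IGF1, averaged 14.08 in Creole, 14.24 in F1 and 14.65 in Large White (Creole minus Large White -0.57, SE 0.11, limma adjusted p = 0.00136), and its 3 other kept probes were called the same way. STC1, a stanniocalcin that inhibits proteases of IGF-binding proteins, averaged 7.10, 7.41 and 7.79 (-0.70, SE 0.09, adjusted p = 9.24e-06), and so were its 2 other probes. For both genes, unlike for IGF2, the F1 mean lay between the parental means.

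The ligand IGF1 differed by -0.16 between Creole and Large White (SE 0.08, adjusted p = 0.299) and was not called. Neither were the receptors IGF1R (0.07, adjusted p = 0.841) and IGF2R (-0.11, adjusted p = 0.464), nor the binding proteins IGFBP3 (-0.22, adjusted p = 0.401) and IGFBP5 (-0.21, adjusted p = 0.709). IGF2BP2 and IGF2BP3, proteins that bind IGF2 mRNA, gave 0.35 (adjusted p = 0.175) and -0.17 (adjusted p = 0.762). INS had a probe that was not kept, and no probe carried the name ZBED6 or IGF2BP1.

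With temperature, 6 of the 35 genes of the IGF system (17.1%) were called, a share close to the 16% of all probes. IGFBP6 rose in HS by 0.36 (SE 0.09, adjusted p = 0.00661). STC1 (-0.31), the kinase GSK3B (-0.26), the transcription factor FOXO1 (-0.26), the translation repressor EIF4EBP1 (-0.23) and IGF2BP2 (-0.37) fell. Other kept probes called the same way were 1 of 3 for IGFBP6, 1 of 2 for STC1 and 0 of 2 for GSK3B. They were 2 of 3 for FOXO1, 1 of 1 for EIF4EBP1 and 1 of 3 for IGF2BP2. No other kept probe of these genes had the opposite sign. With array brightness as a covariate only STC1 was called, with spike-in scaling, of these 6, only IGFBP6, and with median scaling GSK3B, FOXO1 and IGF2BP2 lost the call.

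The labelled tissue was checked by marker lists. The mean level of 12 muscle fibre genes was between 17.08 and 17.78 in every array, and none of them was called between the breeds. Of 15 connective tissue genes, 4 (COL3A1, COL6A2, COL6A3 and DCN) were lower in Creole muscle and passed the limma threshold against Large White (list median -0.31), as were 3 of 7 endothelial genes (CLDN5, KDR and PECAM1) and 1 of 13 leukocyte genes (CD8A), where 1.92% of all probes were called as lower. The mean of the connective tissue list ranged from 10.69 to 12.14 in Creole, from 11.65 to 12.32 in F1 and from 11.63 to 12.50 in Large White. In the 3 Creole arrays with IGF2 in the Large White range this mean was 11.66, 11.84 and 12.02. Among the other Creole arrays it was 10.69 in Creole TN replicate 1 and from 11.63 to 12.14 in the rest. The endothelial mean ran from 9.62 to 10.28 in Creole, from 9.68 to 10.54 in F1 and from 9.94 to 10.68 in Large White. In the same 3 Creole arrays it was 9.83, 9.83 and 9.62. The part of either list in the IGF2 difference was not tested. With temperature, 6 of the 13 leukocyte genes (list median 0.70) and 5 of the 15 connective tissue genes (0.31) were called as higher in HS. So were 5 of 11 genes of satellite cells and regenerating muscle (0.24), 1 of 12 muscle fibre genes and 1 of 7 nerve genes, against 7.73% of all probes. Called as lower in HS were 2 of 12 muscle fibre, 2 of 7 endothelial, 2 of 4 blood cell and 2 of 5 liver genes. The same held for 1 of 10 adipocyte genes and 1 of the 11 satellite and regenerating muscle genes, against 8.3% of all probes. The part of these lists in the HS differences given above was not tested. The mean of 5 liver genes was 9.96 in Creole TN replicate 2, 9.25 in Creole TN replicate 5 and 8.88 in Large White TN replicate 3, and from 7.30 to 8.07 in the other arrays. The IGF2 reference probe read 14.84, 15.04 and 17.46 in these 3 arrays. Without them its Creole minus Large White difference was -1.55, its HS minus TN difference 0.29 (adjusted p = 0.526), that within Creole 0.24 (adjusted p = 0.82) and the F1 position -39.0%. Arrays had 58.4% to 75.9% of probes well above background, and no spot was saturated.

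Of 9181 other genes with a symbol, each by its brightest kept probe, ADAT3 was most like IGF2 over the 35 arrays (Pearson r = 0.976 with the reference probe). Others among the genes most like it were NME4 (0.667), LDB2 (0.63) and ANTXR1 (0.627). The median r over all these genes was 0.00. After the mean of each group was taken off, r was 0.956 for ADAT3, 0.68 for NME6, 0.669 for ZNF389 and 0.608 for RBL2. For ZNF389 r over all arrays was 0.274. With group means taken off, r was 0.567 for NME4, 0.605 for LDB2 and 0.355 for ANTXR1. The 4 other kept probes of NME4 gave 0.481 to 0.628 over all arrays and 0.163 to 0.463 within groups. The 1 other kept probe of ANTXR1 gave 0.664 and 0.332. Each point behind an r is 1 array, measured by the gene's probe and by the reference probe. ADAT3 was represented by 1 kept probe, O6104, named after a protein entry.

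When all 41509 kept probes not named IGF2 were ranked, 6 had r above 0.9, a limit set after the values were seen, and the next highest r was 0.735. They were A_72_P155326 (0.986), which shares the 39 bases printed above with O9318, A_72_P113676 (0.98), O6104 (0.976), A_72_P477678 (0.97), a probe that the files name by a sequence number alone (0.938), and A_72_P163961 (0.915). The identifier of the probe named by a number contains NM_213883, the transcript on which most of the IGF2 probes were designed, although its own bases share no run longer than 7 with any IGF2 probe. For the probes other than A_72_P155326, the longest run of bases shared with an IGF2 probe on either strand was 7 to 10. For 5 of the 6 probes, A_72_P163961 excepted, the widest gap separated the same 16 arrays from the same 19 as in IGF2. Their Creole minus Large White differences ran from -0.50 to -1.83 and their F1 positions from -14.7% to -36.1%. What these probes bind was not tested, as no genome was used here.

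**Figure D5:**
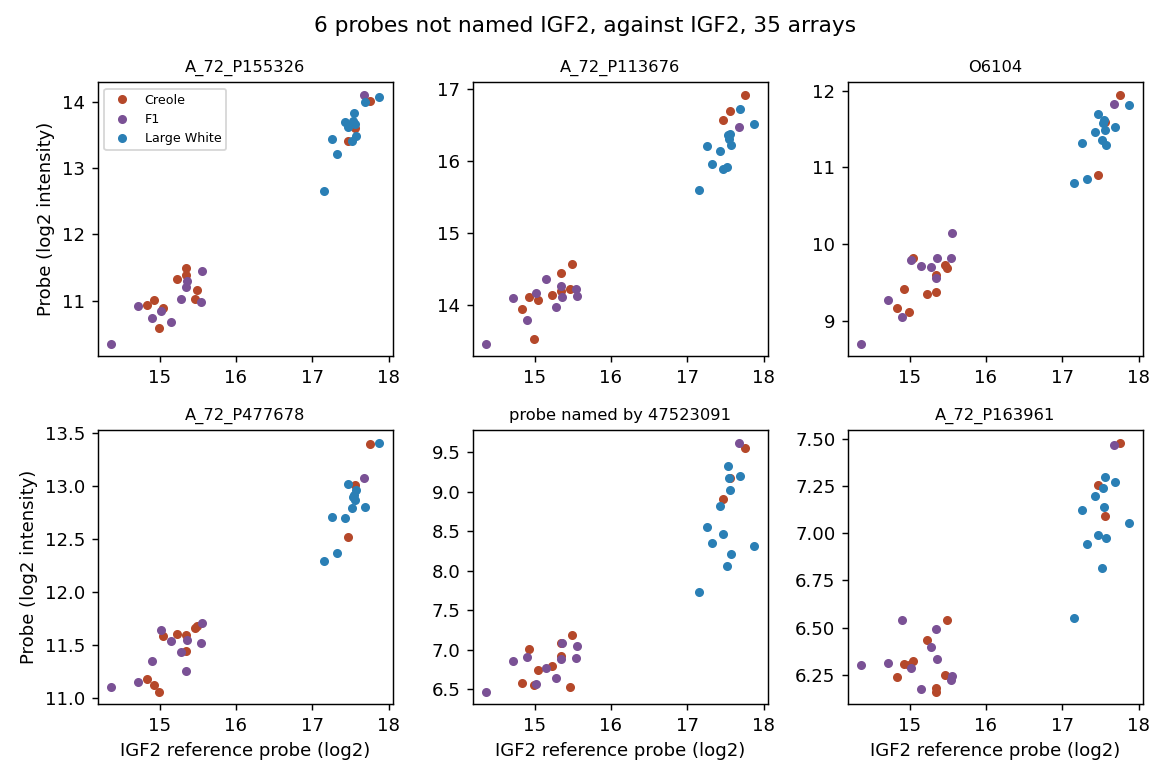
Level of each of the 6 probes not named IGF2 (log2 intensity, vertical axes, each with its own scale) against the IGF2 reference probe (log2, horizontal axes), with 1 point per array coloured by breed. The points form a lower and an upper cloud, whose vertical ranges nearly touch for A_72_P163961, and the upper cloud holds the Large White arrays with 3 Creole arrays and 1 F1 array.

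A wide gap was not particular to IGF2 in these arrays. Among the 41517 kept probes, 69 had a gap of more than 1 log2 with at least 5 arrays on each side, a limit also set after the values were seen. These 69 included all 8 IGF2 probes, 2 of the 6 probes just named and 59 others. The SD of the IGF2 probes within groups, 0.82 to 0.96 log2, was above that of 98.5% to 99.1% of the kept probes.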

How the data were processed

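The authors hybridised Cy3-labelled cRNA of 1 muscle sample per array and scanned spots with Agilent Feature Extraction 10.10.1.1, named in the submitters' processing notes. The deposited scanner files hold intensity values per spot on a linear scale. The deposited value table holds log2 values of 40649 probes, which the authors quantile-normalised and filtered for expression. Its scale and order of steps were checked against the scanner values (SD of the difference 0.00926 log2, each column closest to its own array).

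Median pixel intensities of non-control spots were quantile-normalised without background subtraction, log2 was taken, outlier spots were dropped, and replicate spots were averaged. A probe was kept (41517 were) where 75% or more of a group's arrays had it well above background. The limma package (3.58.1, R 4.3.3) was used over all kept probes with Benjamini-Hochberg adjustment at 0.05: breed plus temperature for temperature and for F1 against the midpoint, and 1 mean per group within breeds and for the interaction. All 35 arrays entered each fit. The labels hold no litter, pen or slaughter day, so no fit includes them, and p-values treat littermates as independent. Alternatives were other scalings, background corrections and filters, the deposited table, slide, brightness and array weights, leaving out single arrays and, chosen after seeing the data, leaving out the 3 arrays with the highest liver means. The fits were tested on simulated data, with 100 probes shifted by 0.5 log2 and 100 by 1 log2 among 41465. For HS minus TN, 78 and 98 were recovered with 8 false calls, and for F1 minus the midpoint 82 and 98 with 12. These counts pool all shifted probes. Recovery at the within-group SD of the IGF2 probes, 0.82 to 0.96 log2, was not tested.

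The gene, the lists and the tests were chosen with earlier results of these data known. Named genes were IGF2 by all its probes, listed genes that were called, IGF1, IGF1R, IGF2R, IGFBP3, IGFBP5, H19, INS, ZBED6 and IGF2BP genes in any case, and the 5 genes most like IGF2 by each of 2 correlations. A gene that this rule names is not reported here. Genes were named through RefSeq accessions (Sscrofa11.1), synonyms, then file names, with 1 probe a gene (highest mean). No genome position is printed, since the files name no build. The number of arrays limits the precision.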

Additional observations from a re-analysis of the deposited data

Results flagged for a closer look

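Within a group of arrays, a sample was marked when its distance to the nearest other sample was a larger share of the group's range than Dixon's 95% limit for the group size allows. Chance marks about 1 in 20 groups, and 17 of the 48 pairs of an IGF2 probe and a group were marked, but the 8 probes measure the same gene in the same animals.

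Creole TN replicate 6 stood above the other Creole TN arrays in all 8 probes, with a share of the range of 0.828 in A_72_P376458, 0.868 in A_72_P599193, 0.84 in A_72_P303139, 0.812 in A_72_P414438, 0.833 in A_72_P544532, 0.824 in A_72_P537638, 0.856 in O9318 and 0.826 in A_72_P537644. F1 HS replicate 3 stood above the other F1 HS arrays in all 8 probes as well, with 0.84, 0.838, 0.875, 0.833, 0.839, 0.886, 0.836 and 0.837 in the same order. Large White HS replicate 5 was lower than the other Large White HS arrays in A_72_P537644 only (0.667). The Creole HS group was not marked, since 2 of its 6 arrays were high. The cause of these levels was not tested.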

How the results depend on the processing

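The arrays number 5 or 6 per group, which limits the precision, and all IGF2 probes were well above background on every array. According to the study methods, littermates formed blocks within each breed. No paired analysis was possible because the labels give neither the litter nor replicate numbers. The replicate numbers used here only follow the order of deposition. The Creole minus Large White difference of IGF2 stayed between -1.90 and -1.51 under 15 alternatives and between -1.91 and -1.61 when single arrays were left out, and the F1 position between -39.0% and -20.2% and between -38.9% and -13.3%. The HS minus TN difference over breeds ran from 0.22 to 0.43 under 14 alternatives and from 0.23 to 0.52 without single arrays, with adjusted p from 0.124 to 0.588 and no call. HS minus TN ranged from 0.23 to 0.98 in Creole, from -0.034 to 0.66 in F1 and from 0.08 to 0.22 in Large White without single arrays. The sign changed in F1 without F1 HS replicate 3 (-0.034) and in Large White with scaling to the 75th percentile (-0.036) or with the processed signal (-0.078), all uncalled. The adjusted p of the interaction was at least 0.941 throughout.

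F1 minus the parental midpoint lost its call with scaling to the 75th percentile (-1.25, adjusted p = 0.0696), the processed signal (-1.24, adjusted p = 0.0659), no filter (-1.27, adjusted p = 0.051), slide as a block (-1.17, adjusted p = 0.0552) and, an alternative chosen after seeing the data, without the 3 arrays of highest liver means (-1.34, adjusted p = 0.0559). It kept the call under the other 8 alternatives. Leaving out single arrays gave -1.49 to -1.16, with adjusted p from 0.00342 to 0.0959, and the call was lost without F1 HS replicate 1, 2, 4 or 5, F1 TN replicate 1, 2, 3, 4 or 5, Large White TN replicate 3, 4 or 5, or Large White HS replicate 1 or 6. The cause was not tested.

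Of the IGF system, 3 genes were called with temperature under spike-in scaling (IGF1R, IGFBP6 and FOXO3) and 1 with brightness as a covariate (STC1), against 4 with median scaling (IGF1, IGFBP6, STC1 and EIF4EBP1), 5 without the 3 arrays of highest liver means, 9 with array weights and 6 to 8 without single arrays. The count between breeds was 2 or 3 throughout. Among the neighbours, 1 gene was called between breeds with brightness as a covariate (TNNT3) or array weights (SLC22A18), and 0 to 1 without single arrays (SLC22A18 without Creole HS replicate 1, TNNT3 without Creole TN replicate 2 or Creole HS replicate 2). Among the imprinted genes, 1 was called with array weights (SLC22A18), and 0 to 1 without single arrays, the 1 being SLC22A18 without Creole HS replicate 1.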
